A study of Sus scrofa with 12 samples.

Results

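The genes described here are 39 regulators of pre-mRNA splicing in the longissimus dorsi (LD) of Iberian pigs, a muscle of the loin. They were taken from a list of gene symbols drawn up with earlier results of these data in view, chosen by their levels beside the share of transcripts inside introns of each library, and all 39 were found among the 28224 annotated genes on the chromosomes of the pig genome build Sscrofa11.1. They comprise 6 cyclins L and CLK kinases, 3 SRPK kinases, 12 SR proteins with TRA2, 9 hnRNP proteins and 9 other nuclear speckle and RNA-binding proteins. LUC7L2 carries no symbol in the RefSeq annotation and was matched by its product name to the gene with the identifier 102162486. All 39 passed the filter on low values, as did 12405 genes in all, and 38 of the 39 had a level above 0 in all 12 libraries. Since the list was chosen with the relation to that share known, the relation is given as a description, with no test.

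The study compared 6 pigs with high (H) and 6 with low (L) breeding value for intramuscular fat (IMF), with 1 RNA library per pig. All were castrated purebred Iberian males fattened on acorns and grass, none of them close siblings, and the muscle was taken at slaughter. The labelled IMF was 10.62 to 13.8% in the H group and 1.7 to 2.28% in the L group. Fattening and slaughter took place in several batches, and the sources used here do not say which pig was in which, so batch and group cannot be told apart. Since LD is a mixed tissue, a lower level can mean fewer cells of a type or less RNA per cell, and these cannot be told apart.

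Splicing removes the introns of a pre-mRNA and joins its exons. SR proteins bind exons and recruit the spliceosome, whereas hnRNP proteins often act against them, and the CLK and SRPK kinases phosphorylate SR proteins and so set their place in the nucleus and their activity. Cyclins L pair with CDK11 and are found with the SR proteins in nuclear speckles. Many of these genes control their own messages, either by keeping an intron or by including an extra exon with a stop codon, which leads to a transcript that stays in the nucleus or is degraded.

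The depth of the files is seen from the coverage per unit of FPKM (mapped fragments scaled by transcript length and library size), which ran from 7.51 to 11.6 over the 12 libraries with similar means in both groups (9.75 and 9.65; two-sided exact permutation test, p = 0.9). Among the markers of skeletal muscle, ACTA1, MYH1, MYH2 and MYH4 are listed at 0 in all 12 libraries while the list sums to at least 36072 FPKM, so that a value of 0 means that no transcript was assembled. The intron share, the percentage of assembled transcripts lying wholly inside an annotated intron, was 16.6 to 23.3% in H pigs (median 19.1) and 11.3 to 17.4% in L pigs (median 15.9). The means lay 3.96 percentage points apart (two-sided exact permutation test, p = 0.00649). This difference was already known from earlier results of these data, so its p is a description and no new support. By coverage instead of number the difference was -2.49 points (p = 0.325, same exact test), and 85.2 to 98.4% of the intronic coverage lay in transcripts under 200 bases. The number of assembled transcripts on the chromosomes was 34613 to 43938 in H pigs and 30119 to 35562 in L pigs (same exact test, p = 0.00866). This number had an r of 0.96 with the intron share, and its part in the share was not tested.

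The introns and extra exons that transcripts of these genes keep are described before their levels, and the sequences at these places are shown first. CLK1 (chr15:104553512-104562348, minus strand) encodes a kinase of SR proteins, and its introns 3 and 4 flank a coding exon of 91 bases. CLK4 (chr2:79729460-79752945, plus strand) encodes a close relative, and intron 5 of its transcript XM_005654961.3 is shown beside CLK1 intron 4 for the likeness of their donor windows. The donor windows below hold the last 10 exon bases and the first 20 intron bases of Sscrofa11.1, with the first bases of the intron in capitals.
CLK1 intron 3, chr15:104559989-104560018: ttcacatgggGTatgcaatcttttaaaata
CLK1 intron 4, chr15:104558893-104558922: agtgcaagatGTatatagaatatttttcaa
CLK4 intron 5, chr2:79738791-79738820: agagcaagatGTatagaatatttttcaaca
CLK1 intron 4 and CLK4 intron 5 share an unbroken run of 17 bases within these windows of 30. Read on in the frame of the annotated protein, CLK1 intron 3 meets its first stop codon at intron base 79, CLK1 intron 4 at base 6 and CLK4 intron 5 at base 78. The stop codons are given in capitals.
CLK1 intron 3, chr15:104559916-104559942: tgtttgattattTGAgaaagttctgtt
CLK1 intron 4, chr15:104558893-104558912: gtataTAGaatatttttcaa
CLK4 intron 5, chr2:79738866-79738892: tcagcggggggcTAAagaactcttcat

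TRA2A and TRA2B encode SR-like proteins that favour the inclusion of exons. Each has an extra exon inside an intron of another annotated form, of 312 bases in TRA2A (chr9:92312819-92313130, minus strand; intron 1 of NM_001077223.1) and of 276 bases in TRA2B (chr13:123774508-123774783, minus strand; intron 1 of NM_001077221.1). The acceptor windows, 20 intron bases and 10 exon bases with the end of the intron in capitals, are identical at 26 of 30 positions.
TRA2A extra exon, chr9:92313121-92313150: aatgttctttttccattaAGgttaatgttc
TRA2B extra exon, chr13:123774774-123774803: cctgttctttttctattaAGgttaatgttg
In the frame of the upstream coding exon, the first stop lies at base 142 of the TRA2A exon and at base 79 of the TRA2B exon. SRSF3, SRSF6 and SRSF7, which encode SR proteins, hold extra exons of 458, 268 and 448 bases of the same kind, and the stops of all 5 genes are shown in capitals.
TRA2A, chr9:92312975-92313001: agattggtcagaTAGaagcacttgaat
TRA2B, chr13:123774691-123774717: ctcaggaataagTGAagctgaaatttg
SRSF3, chr7:32293982-32294008: ctcaccaccctcTGAatctgcattagc
SRSF6, chr17:46120909-46120935: gccttttgccatTAGacgcagggtgat
SRSF7, chr3:101605617-101605643: agtcagtcgcctTGAttcagaatgtca
Over all members, 25 exons of 20 genes were skipped in some transcripts and included in others in enough libraries to be followed. Of these 25, 9 brought an in-frame stop. Another 13 lay wholly in an annotated coding sequence, which holds no early stop by definition, so their lack of one is no result.

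The first question is whether transcripts of the splicing regulators kept introns to a different extent in both groups. An intron was counted as kept when an exon of a transcript ran across it, and its percentage is the FPKM of such transcripts over that of all transcripts that cover or splice it. CLK1 intron 3 was kept in 0 to 100% of the H group (median 60.9) and 0 to 38.5% of the L group (median 0). It was above 0 in 5 of the 6 H pigs and in 1 of the 6 L pigs, the exceptions being H3 and L4. CLK1 intron 4 was kept in 0 to 62% of the H group (median 50.1) and 0 to 19.4% of the L group (median 5.59).

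CLK4 intron 5 followed the same pigs. It was kept in 0 to 29.5% of the H group (median 24.7) and in 0 to 17.2% of the L group (median 0), above 0 in 5 H pigs and 1 L pig, again with H3 and L4 as the exceptions. RBM3, which encodes a cold-inducible RNA-binding protein, kept intron 5 in 5 H pigs and 1 L pig, at 0 to 41.2% (median 14.6) against 0 to 13.2% (median 0). HNRNPL, an hnRNP protein that binds CA repeats, kept intron 6 in all 6 H pigs (23.2 to 58.9%, median 28.8) and in 2 L pigs (0 to 27.4%, median 0).

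Tested intron by intron with limma on arcsine-transformed shares, these differences had adjusted p of 0.233 for CLK1 intron 3, 0.326 for CLK1 intron 4, 0.373 for CLK4 intron 5, 0.402 for RBM3 intron 5 and 0.291 for HNRNPL intron 6. None passed the threshold of 0.1, which 0.922% of all introns did. Of the 31 introns of 16 members that could be tested, 11 of 8 genes had an unadjusted p below 0.05 and a higher share in the H group, and 0 a lower one. In the background of 1302 introns, 7.3% met the first condition and 2.23% the second, 9.52% together. An intron was tested only if kept in at least 6 libraries, and CLK1 intron 3, CLK4 intron 5, RBM3 intron 5 and SRSF5 intron 1 reached this with 5 H pigs and 1 L pig. Such introns had to differ between the groups, and testing by intron was chosen after values were seen, so the count of 11 is a description and supports no difference. The smallest adjusted p, 0.115, belonged to SRSF5 intron 1 (chr7:93393662-93394429), which lies before the start codon and was measured in 5 pigs of each group. It was kept in 28.7 to 100% of the H group and in 0 to 42.8% of the L group, where only L1 was above 0. The other introns of the 11 belong to RBM5, SRSF2, TRA2A and again SRSF5, and the RBM5 pair overlap, so that they are not 11 separate observations. All 7 coding introns among the 11 bring an in-frame stop. Among the other coding introns of members that were tested, only HNRNPM intron 6 has none, so a stop does not set the 7 apart. Several are introns of a minority of the annotated forms, such as that of SRSF2, kept in all H pigs at 100% and in L pigs at 38.4 to 100%.

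**Figure D1:**
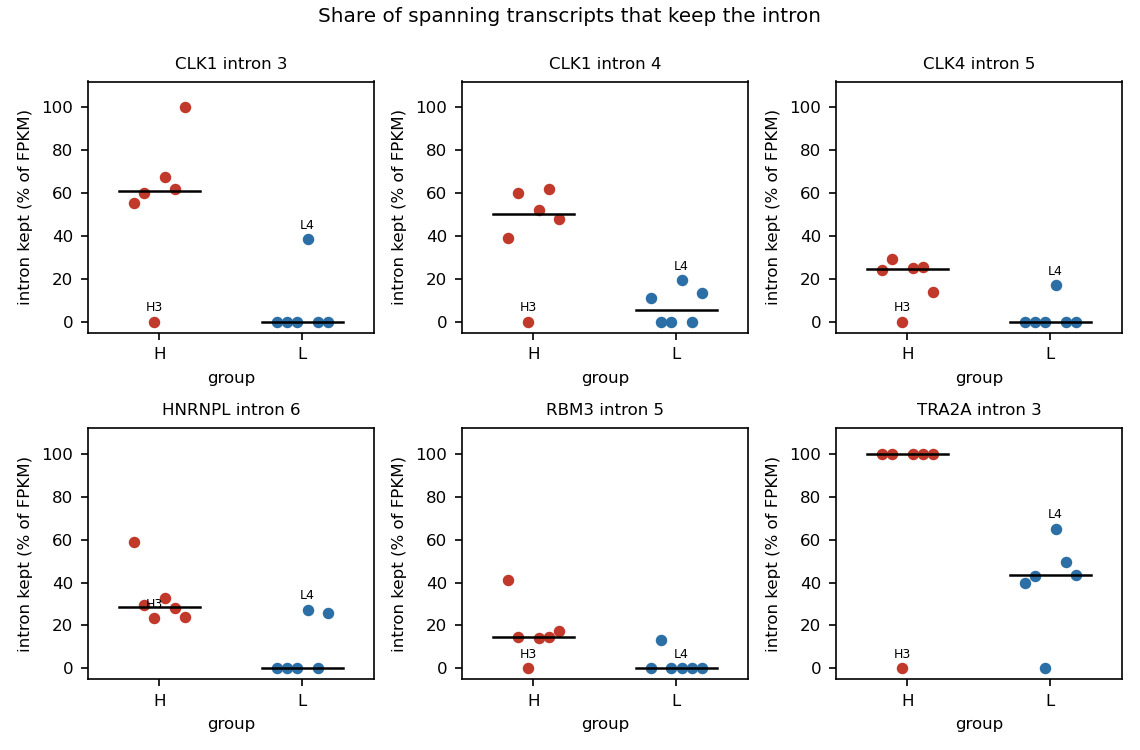
Percentage of FPKM of the spanning transcripts that keep an intron, one point per pig, H group in red and L group in blue, with the group median as a black line. For CLK1 introns 3 and 4 and CLK4 intron 5, H3 is at 0 among the H pigs and L4 is the highest L pig.

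Summed over a whole gene, 20 members could be tested for the share of FPKM in transcripts that keep any annotated intron. Of these, 6 had an unadjusted p below 0.05 with a higher share in the H group and 0 with a lower one. Of all 2325 genes 5.25% met the first condition and 2.37% the second, 7.61% together. No member passed the threshold on the adjusted p, which 0.086% of these genes did. The same filter of 6 libraries applied, and RBM3 passed it with 5 H pigs and 1 L pig, so this count is a description too. SRSF5 kept an intron in 73.5 to 100% of its FPKM in the H group and 51.1 to 100% in the L group (limma, adjusted p = 0.501). In 2 H and 5 L libraries a transcript of SRSF5 ran more than 1 kb past the gene, by up to 49126 bases. The part of these transcripts in the share was not tested. CLK1 kept one in 0 to 72% (median 55.2) against 0 to 38.5% (median 3.9; adjusted p = 0.58). LUC7L, related to a yeast component of the U1 particle, kept one in 0 to 100% (median 52.6) against 0 to 48% (median 0; adjusted p = 0.642). The other 3 were RBM3, PNISR and SRSF1, with adjusted p of 0.576, 0.642 and 0.642. The adjusted p of SRSF5 was 0.0267 without L4, and no other pig left out brought a member below 0.1. In 10 of the 39 genes, among them SRSF3, SRSF6, HNRNPK and SON, no transcript of any library kept an intron.

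Over the 12 libraries the retained share of CLK1 had an r of 0.74 with the intron share, and within the H and L groups 0.48 and 0.49. For LUC7L r was 0.77 (0.70 within H, 0.42 within L) and for TRA2A 0.74 (0.60 and 0.80). Both measures come from the same assemblies, so this is a description of the files over 12 points. The intron share also had an r of 0.51 with the depth, 0.82 within H and 0.47 within L, and the part of depth in the relation was not tested.

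The 9 extra exons with a stop codon lie in 8 genes, and their inclusion is given gene by gene, as a description without a test and without a background over other genes. Exons had to be included in at least 6 libraries to be followed, and those of TRA2A and LUC7L2 passed with 1 H pig and all 6 L pigs. The TRA2A exon was included in 29% of the spanning FPKM of H3 and in 0% of the other 5 H pigs, while in the L group it was at 21.2 to 43% in all 6 pigs. The intron that follows this exon, intron 3 of XM_021102282.1, was kept in 100% in the H pigs other than H3, where it was at 0%, and in 0 to 65.1% in the L group (limma, adjusted p = 0.413). LUC7L2 had a like split at an extra exon of 277 bases (chr18:10329485-10329761), which was at 43.2% in H1, at 0% in the other 5 H pigs and at 13.7 to 59.2% in the L group. In those 5 H pigs, transcripts that keep an annotated intron held 8.71 to 17.3% of the FPKM of LUC7L2. They held 0% in H1 and in every L pig. A transcript that keeps the intron after the TRA2A exon runs across it and so holds bases of that exon. An exon at 0% can thus stand beside kept introns and does not show that its bases were skipped. The part of kept introns in these exon shares was not tested. The TRA2B exon was at 0 to 28.7% in H pigs (median 17.5), above 0 in 4 pigs, and at 19.2 to 38.6% (median 25.8) in all 6 L pigs.

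The transcript of TRA2B with this exon, which has the intron chain of XM_021068632.1, was listed in 3 H and all 6 L libraries. Its level was 0 to 5.37 FPKM in H pigs (median 1.16) and 3.31 to 5.91 FPKM in L pigs (median 4.48), with a log2 fold change of -1.88 (SE 0.64; limma, unadjusted p = 0.0129, adjusted p = 0.792). The SRSF6 exon was above 0 in 4 H pigs (0 to 49.4%, median 22.5) and all 6 L pigs (19.7 to 47.2%, median 38.8). The SRSF3 exon was above 0 in 5 H and 4 L pigs, with medians of 19.8 and 24.9%, unlike the other 4. The SRSF7 exon was above 0 in 3 of 5 H pigs measured and in all 6 L pigs, with medians of 25.6 and 30.3%. The intron after it (chr3:101606052-101606299) was kept at 100% in H2, H5 and H6 and at 58.3% in H4. In H1, H3 and the L group this intron was at 0%. The exon was at 0% in H5 and H6 and not measured in H2. The transcripts that kept this intron in H5 and H6 also hold bases of the exon. HNRNPA2B1, the most abundant of the 39, includes a coding exon of 36 bases without a stop, at 17.6 to 44.9% (median 30.6) in the H group and 42.2 to 79.5% (median 53.4) in the L group, and the groups overlap only between 42.2 and 44.9%. MBNL1 includes a coding exon of 36 bases at 0 to 100% (median 92.6) in the H group and 29.5 to 100% (median 48.1) in the L group.

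CCNL1 and RBM3 hold the remaining extra exons with a stop. The RBM3 exon of 269 bases was included in all 12 pigs, at 25.2 to 68.9% (median 29.6) and 25.4 to 43.5% (median 35.2). The CCNL1 exons, of 148 and 73 bases with the same start, were above 0 in 3 H pigs each and in 3 and 4 L pigs. A non-coding exon of HNRNPK of 74 bases was the steadiest of the 25, at 37.3 to 48.1% over the 12 pigs.

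**Figure D2:**
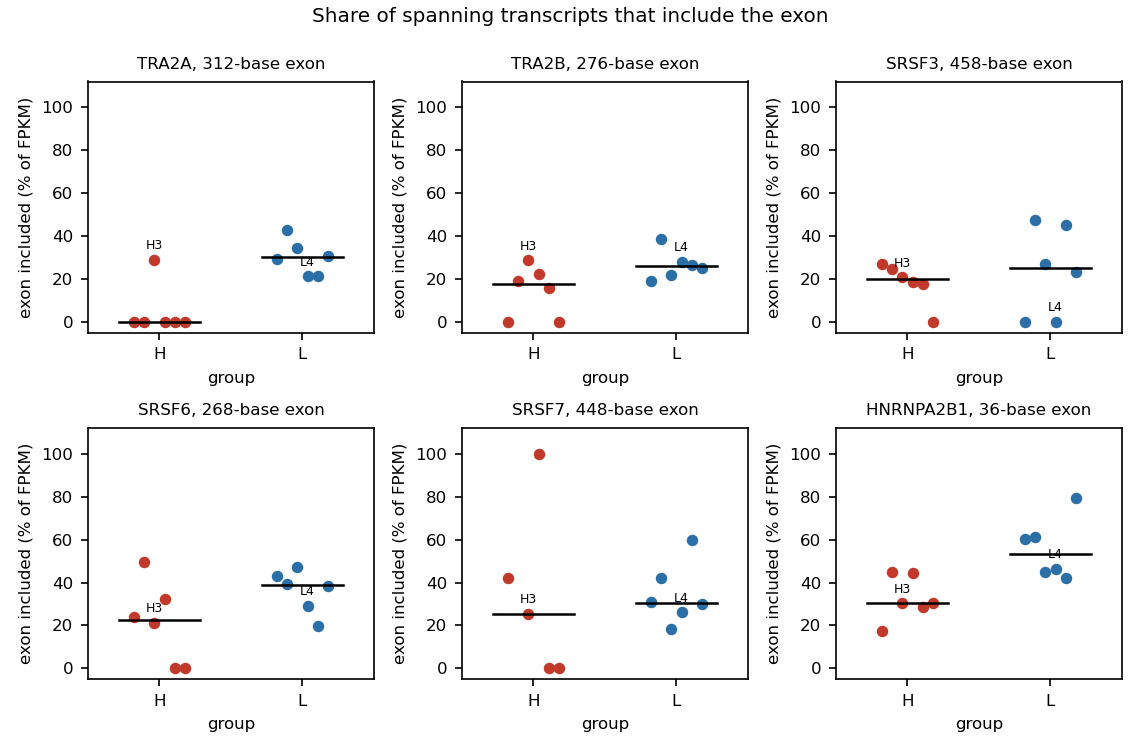
Percentage of FPKM of the spanning transcripts that include an exon, one point per pig, H group in red and L group in blue, with the group median as a black line. The TRA2A exon is at 0% in all H pigs except H3 and between 21.2 and 43% in the L pigs. In those H pigs the intron after this exon was kept, and such transcripts hold bases of the exon. A value of 0% thus does not show that these bases were skipped.

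In all, the members had 476 distinct intron chains over the 12 files, of which 270 were found in 1 library alone and 6 in all 12. Of the 57 chains of members that could be tested, 0 passed the threshold with limma, which 0.0557% of 12573 chains did. Among them 2 had an unadjusted p below 0.05 and were higher in the H group and 3 were lower, with 2.27 and 3.08% of all chains in these directions and 5.34% in both. RBM5, a regulator of exon choice in apoptosis genes, had the chain of XM_005669588.3 in all 6 H pigs (5.64 to 9.79 FPKM) and in 2 L pigs (up to 9.47 FPKM; log2 fold change 2.79, SE 0.80, adjusted p = 0.784). RBM39, a partner of the U2 particle, had the chain of XM_003359964.4 in 2 H pigs (up to 18.7 FPKM) and in all 6 L pigs (12.4 to 24.1 FPKM; log2 fold change -3.53, SE 0.95, adjusted p = 0.687). The SRSF9 chain of NM_001195566.1 was listed in 6 H and 3 L pigs and the HNRNPA1 chain of XR_002343825.1 in 2 H and 5 L pigs (adjusted p = 0.878 for both). A chain was tested if found in at least 6 libraries, so that one found mostly in 1 group had to differ. Chains of this kind are present or absent by the decision of the assembler in each library, and a chain listed at 0 was not assembled.

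The second question is whether the levels of the genes differed. A level is the summed FPKM of the transcripts of a gene, scaled between libraries. None of the 39 members passed the threshold of 0.1 on the adjusted p (limma on log2 of FPKM + 0.5), which 0.00806% of the 12405 genes did. With an unadjusted p below 0.05, 3 members were higher in the H group (CCNL2, LUC7L2 and SRSF6) and 0 were lower, where 3.92 and 3.36% of all genes were in these directions and 7.28% in both. The log2 fold change was above 0 in 22 members and below 0 in 17, beside 50.6% of all genes above 0, with a median of 0.02, beside a median of 0.00 for all genes. Every H pig lay above every L pig for CCNL2 alone among the members, as for 0.306% of all genes, and no member had every H pig below every L pig (0.25%).

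**Figure D3:**
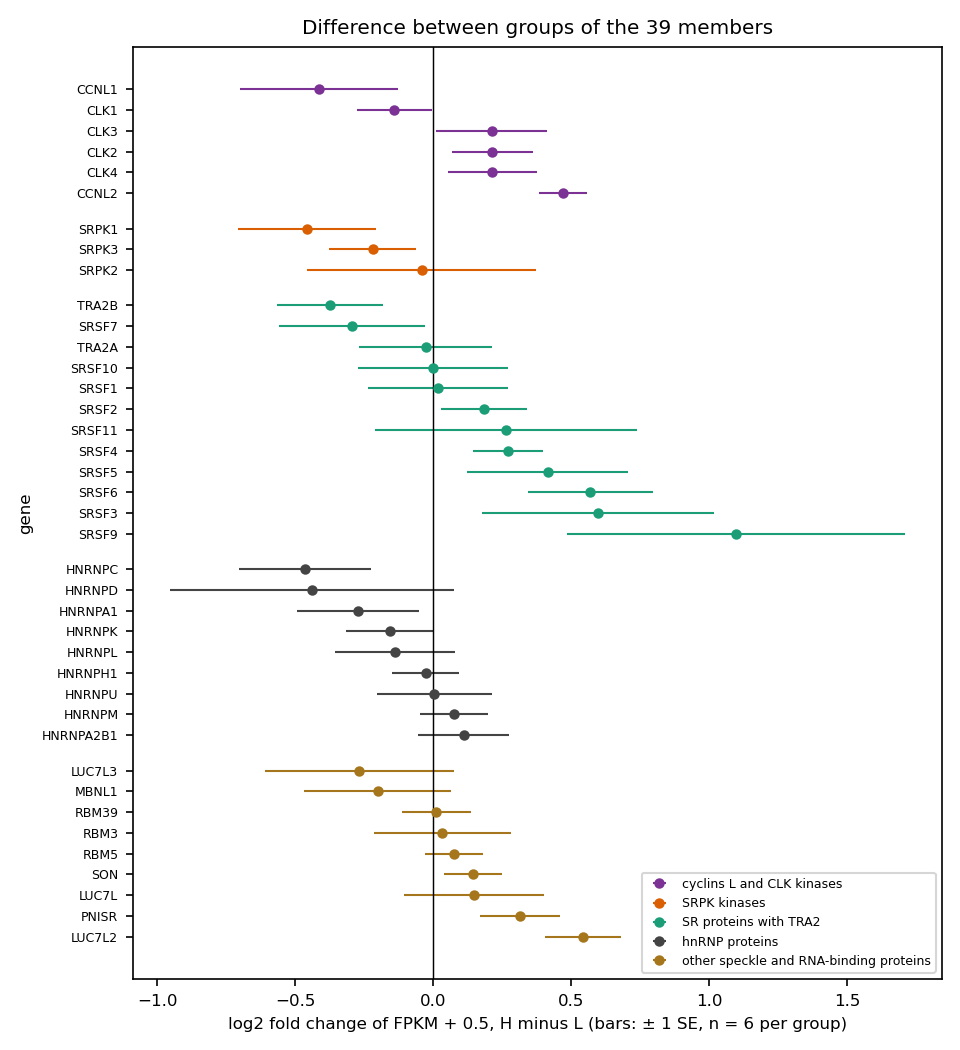
Log2 fold change of FPKM + 0.5, H minus L, for the 39 members in their 5 classes, with bars of 1 SE (6 pigs per group). CCNL2 at 0.47 and LUC7L2 at 0.54 stand farthest from 0 in units of their SE, and the 3 SRPK genes are all below 0.

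Among the cyclins L and CLK kinases, CCNL2 (gene 100739567, chr6:63659053-63668077, minus strand) encodes cyclin L2. Its level was 15.8 to 18.2 FPKM in H pigs (median 17.1) and 11.1 to 13.2 FPKM in L pigs (median 12.3). The groups did not overlap, and the spread within each was narrow. The log2 fold change was 0.47 (SE 0.09), with an unadjusted p of 0.000138 and an adjusted p of 0.285 (limma). Its spliced transcripts alone gave 0.48 (SE 0.08, adjusted p = 0.223). Transcripts that run across an annotated intron made up 73.6 to 100% of its FPKM in the H group and 100% in every L pig, chiefly across intron 6 of XM_021097449.1, which 1 of its 8 annotated forms removes. An antisense gene without a transcript of its own in these files overlaps its 3′ end.

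CCNL1, the paralogue of CCNL2, went the other way in its values. It was at 3.17 to 10.1 FPKM in H pigs (median 8.54) and 6.8 to 14.8 FPKM in L pigs (median 8.71), with a log2 fold change of -0.41 (SE 0.29, adjusted p = 0.774). The kinase gene CLK2 was at 5.03 to 8.75 FPKM (median 6.27) against 4.77 to 6.8 FPKM (median 5.25; log2 fold change 0.21, SE 0.15, adjusted p = 0.774). CLK3 was at 8.85 to 17.9 FPKM (median 11.7) against 8.82 to 17.1 FPKM (median 10.3). The groups of these genes overlapped. CLK1, in spite of its introns, had overlapping levels of 21 to 27.8 FPKM in the H group and 19.2 to 31.7 FPKM in the L group (adjusted p = 0.824).

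**Figure D4:**
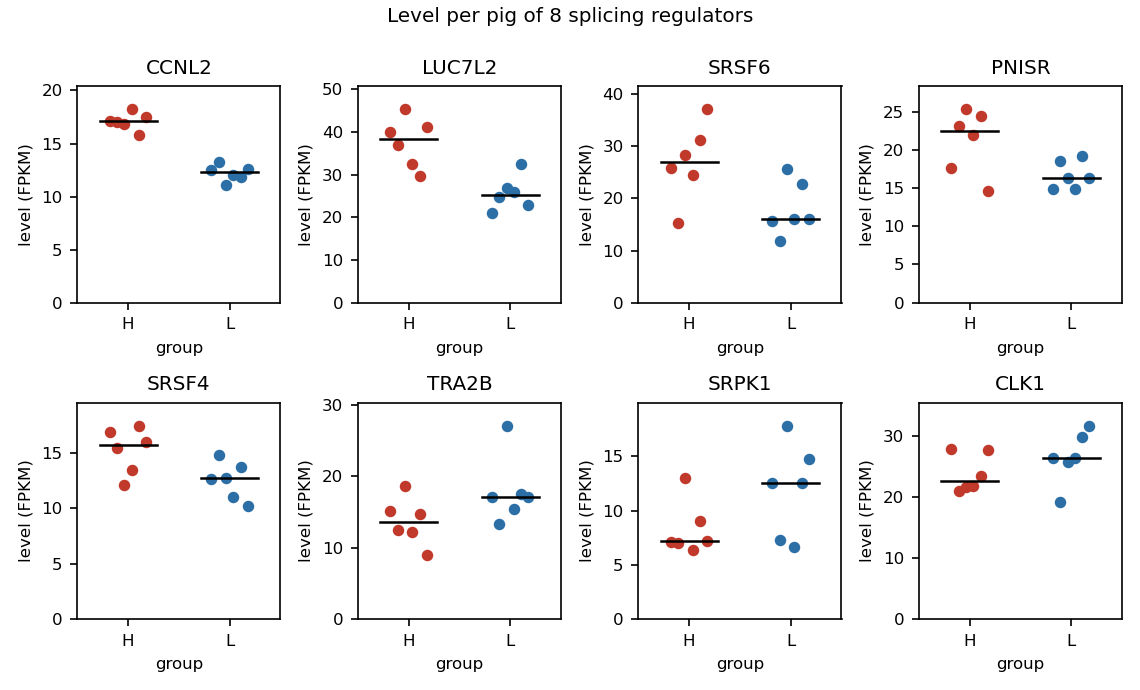
Level in FPKM of 8 splicing regulators, one point per pig, H group in red and L group in blue, with the group median as a black line. The points of CCNL2 do not overlap between groups (15.8 to 18.2 FPKM against 11.1 to 13.2 FPKM), and those of the other genes do.

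The SRPK kinases phosphorylate SR proteins in the cytoplasm, which lets them enter the nucleus. SRPK1 was at 6.37 to 13 FPKM in H pigs (median 7.18) and 6.67 to 17.8 FPKM in L pigs (median 12.5), with a log2 fold change of -0.46 (SE 0.25, adjusted p = 0.73). SRPK3, the muscle form of the family, was at 24.5 to 46.4 FPKM (median 42.1) against 39.7 to 57 FPKM (median 44.4; log2 fold change -0.22, SE 0.16, adjusted p = 0.781). Both overlapped between the groups. SRPK2 had the widest relative range of the 3, 1.78 to 8.1 FPKM (median 2.58) against 1.4 to 10.6 FPKM (median 2.6), with H5 and L3 far above the others, and its log2 fold change of -0.04 (SE 0.41) turned above 0 without H1, H2, H4 or L3, with 0.29 without L3 the highest.

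Among the SR proteins, SRSF6 was at 15.3 to 37.1 FPKM in H pigs (median 27.1) and 11.8 to 25.7 FPKM in L pigs (median 16.1), with a log2 fold change of 0.57 (SE 0.23, unadjusted p = 0.0265, adjusted p = 0.653, limma). In all 12 libraries a transcript of SRSF6 ran more than 1 kb past the end of the gene, and this level includes it. SRSF4 was at 12.1 to 17.4 FPKM (median 15.7) against 10.2 to 14.8 FPKM (median 12.7; log2 fold change 0.27, SE 0.13, adjusted p = 0.682). TRA2B was at 9.03 to 18.7 FPKM (median 13.6) against 13.4 to 27.1 FPKM (median 17.1; log2 fold change -0.38, SE 0.19, adjusted p = 0.702), with L3 the highest. SRSF2, whose protein marks nuclear speckles, was the most abundant of its class at 43.8 to 68.4 FPKM (median 58.9) against 36.8 to 62.9 FPKM (median 50.9; adjusted p = 0.803).

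Of the hnRNP genes none had an unadjusted p below 0.05, and 6 of the 9 had a log2 fold change below 0. HNRNPC, which binds uridine tracts, was at 8.06 to 12.1 FPKM in H pigs (median 11) and 10.4 to 31 FPKM in L pigs (median 12.4; log2 fold change -0.46, SE 0.24, adjusted p = 0.705). HNRNPA1, an opponent of SRSF1 in the choice of splice sites, was at 35.7 to 86.7 FPKM (median 66.5) against 55.9 to 103 FPKM (median 74.5; adjusted p = 0.797). HNRNPK was at 52.2 to 79.7 FPKM (median 77.2) against 63.5 to 114 FPKM (median 77.9; adjusted p = 0.836), with H4 lowest and L3 highest of the 12. HNRNPU, a scaffold protein of the nucleus, had medians of 47.9 and 41.1 FPKM and a log2 fold change of 0.00 (SE 0.21). The annotation used lists the HNRNPU gene as a long non-coding RNA and not as protein-coding. Genes such as HNRNPA1 and HNRNPC have many processed copies in mammalian genomes, and the handling of reads with several matches is stated for Cuffdiff but not for the Cufflinks assemblies used here, so that these levels are uncertain.

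Among the other speckle and RNA-binding proteins, LUC7L2 was at 29.6 to 45.3 FPKM in H pigs (median 38.4) and 21.1 to 32.5 FPKM in L pigs (median 25.3), with a log2 fold change of 0.54 (SE 0.14, unadjusted p = 0.00182, adjusted p = 0.563, limma). The groups overlapped between 29.6 and 32.5 FPKM. Transcripts of a single exon made up 22.9 to 57.9% of its FPKM in the H group and 0 to 17% in the L group. The spliced transcripts of LUC7L2 alone were at 17.2 to 30.8 FPKM (median 25.8) against 20.7 to 26.7 FPKM (median 23.2), with a log2 fold change of 0.07 (SE 0.14, adjusted p = 0.922). Of the 12 libraries the 6 of the H group had the largest shares of single-exon transcripts.

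PNISR, an SR-related speckle protein, was at 14.6 to 25.3 FPKM (median 22.5) against 14.9 to 19.3 FPKM (median 16.3; log2 fold change 0.31, SE 0.15, adjusted p = 0.682). SON, which holds the speckles together, was at 23.2 to 29 FPKM (median 25.9) against 21.2 to 28.4 FPKM (median 22.4; log2 fold change 0.14, SE 0.11, adjusted p = 0.786). MBNL1, the muscleblind regulator of fetal and adult muscle exons, was at 27.1 to 72.5 FPKM (median 54.3) against 44 to 78.3 FPKM (median 52.3; adjusted p = 0.881). The groups of all 3 overlapped.

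The other 20 members had overlapping groups, with log2 fold changes from -0.44 to 1.10 and adjusted p of at least 0.731. These are CLK1, CLK4, SRSF1, SRSF3, SRSF5, SRSF7, SRSF9, SRSF10, SRSF11, TRA2A, HNRNPA2B1, HNRNPD, HNRNPH1, HNRNPL, HNRNPM, RBM3, RBM5, RBM39, LUC7L and LUC7L3. The extreme value of 1.10 belonged to SRSF9 (SE 0.61), which is listed at 0 in 2 L libraries and had a median of 2.26 FPKM in the L group and 3.45 FPKM in the H group. The 80.9 FPKM of SRSF11 in L4, against at most 46.9 FPKM elsewhere, lay mostly in 1 transcript of 113 bases at 65.1 FPKM as deposited. The 46.9 FPKM belonged to H1, where 1 transcript of 129 bases held 27.2 of the 44.8 FPKM as deposited. Over the 12 pigs the medians per length ran from 221 FPKM for HNRNPA2B1, through 77.9 for HNRNPK, 73.1 for HNRNPA1 and 71.5 for HNRNPH1, down to 2.58 for SRPK2 and 2.55 for SRSF9. Every value of HNRNPA2B1, at least 150 FPKM, lay above every value of the other 38 genes, and below it neighbours in this order overlapped in their values.

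When coverage over the annotated exons replaced the FPKM of the assembled transcripts, 7 members had an unadjusted p below 0.05 and were higher in the H group, beside 5.17% of all genes, and 0 were lower. None passed the threshold, which 0.00806% of all genes did. These were CCNL2, PNISR, TRA2A, RBM5, SRSF5, LUC7L2 and SRSF2, and the smallest adjusted p was 0.255, for CCNL2, PNISR and TRA2A alike. Bases that are exonic in 1 annotated form and intronic in another count as exonic in this measure, and their part in these differences was not tested.

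The third description sets the level of each member, as log2 of FPKM + 0.5, beside the intron share over the 12 libraries. The correlation r was at least 0.5 for 6 members (15.4%) and -0.5 or lower for 6 (15.4%), where 11.1% of all genes met the first and 11.1% the second condition, so the shares were not far from the background. It was above 0 in 21 of the 39, and in 52% of all genes. CCNL2 had the highest r, 0.81 (Spearman's rho 0.80), with 0.93 within H, 0.51 within L and 0.75 without the 2 pigs farthest from the median share. The others at or above 0.5 were LUC7L2 (0.57), SRSF2 (0.57), SON (0.56), CLK4 (0.54) and SRSF5 (0.53). Without the 2 pigs named, H4 and L3, 4 of the 6 remained at or above 0.5. LUC7L2 was at -0.01 within H and 0.07 within L, so that its r came from the difference between the groups.

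At the other end HNRNPK had an r of -0.79 (rho -0.45), SRPK1 of -0.71, TRA2B of -0.70, SRPK2 of -0.62, SRSF7 of -0.61 and SRSF10 of -0.50. All 6 were below 0 within H and within L. Without H4 and L3 none of the 6 remained at -0.5 or lower. SRPK1 was then at -0.47 and TRA2B at -0.40, close below the limit in size, while SRSF10 was at -0.23, SRPK2 at -0.14, SRSF7 at -0.07 and HNRNPK at -0.06, so that the relation of the last 3 rests on these pigs. SRPK1 also had a rho of -0.71 and an r of -0.61 within each group. HNRNPC was at -0.48 (rho -0.73) and kept -0.57 without them. SRPK3, at -0.05, stood apart from the other SRPK genes.

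**Figure D5:**
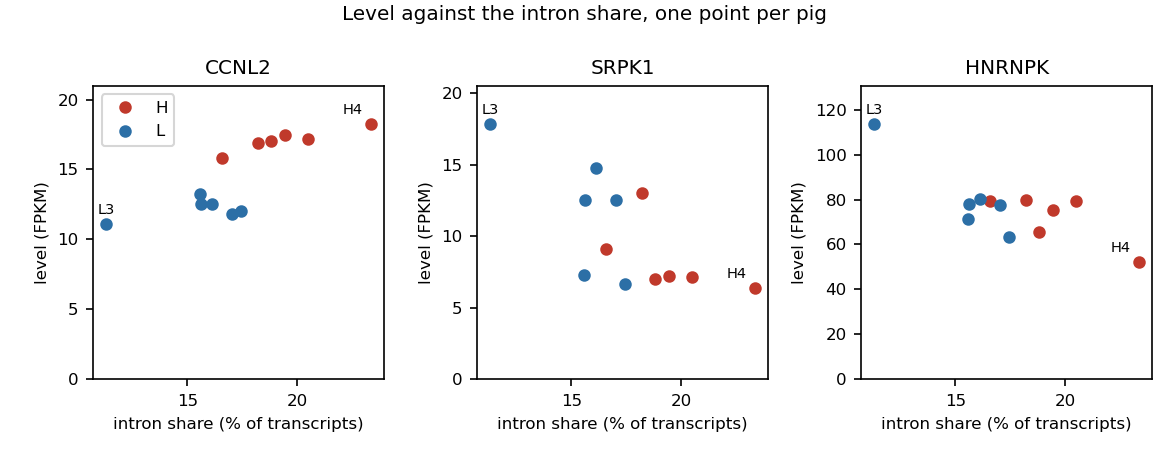
Level in FPKM against the intron share in percent of transcripts for CCNL2, SRPK1 and HNRNPK, one point per pig, H group in red and L group in blue. L3 has the lowest share (11.3%) and H4 the highest (23.3%), and without them r is -0.06 for HNRNPK, -0.47 for SRPK1 and 0.75 for CCNL2.

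L3, the library with the lowest intron share, also had the highest summed level of heat shock genes, 27781 FPKM against 2836 to 9067 FPKM in the other 11, and of immediate early genes, 954 FPKM against 125 to 514 FPKM. The sums of these lists had an r of -0.72 and -0.76 with the intron share. Within the H group, H3, which kept no intron in CLK1 and CLK4, had the highest sum of immediate early genes (413 FPKM, the other H pigs 125 to 263 FPKM), and its 5802 FPKM of heat shock genes lay within the range of the group. Of the 21 immediate early genes tested, 9 were lower in the H group at an unadjusted p below 0.05 and 0 higher, which is 42.9% lower beside 3.36% of all genes. Of the 13 heat shock genes 1 (7.69%) was lower and 0 higher. No gene of either list passed the threshold. DNAJB1, a heat shock chaperone gene, was listed at 0 in 4 H libraries, H3 among them, and at 14.1 to 36.2 FPKM in the L group. HBB, the beta globin gene of red cells, was at 85.4 to 295 FPKM in the H group, with H3 the lowest, and 72.7 to 159 FPKM in the L group. Of the adipocyte genes 9 of 9 tested had a log2 fold change above 0, beside 50.6% of all genes. Their sums were 107 to 210 FPKM in the H group and 79 to 130 FPKM in the L group. The part of these cells and responses in the splicing genes was not tested.

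Other genes of the splicing machinery are given by list. No gene of the lists below passed the threshold on the adjusted p. Of the 56 tested genes of the spliceosome core, 5 had an unadjusted p below 0.05 and were lower in the H group and 0 were higher, and 18 had a log2 fold change above 0 (list median -0.11). These are 8.93% lower and 32.1% above 0, beside 3.36 and 50.6% of all genes. With the intron share, 18 of the 56 (32.1%) had an r of -0.5 or lower, beside 11.1% of all genes, and the sum over the list had an r of -0.78. SF3A2, a subunit of the U2 particle, was at 4.7 to 11.2 FPKM against 9.95 to 20.9 FPKM (log2 fold change -0.89, SE 0.22, adjusted p = 0.563), and XAB2 at 3.63 to 5.01 FPKM against 4.38 to 8.21 FPKM (-0.51, SE 0.16, adjusted p = 0.59). Of the 8 tested genes of the minor spliceosome 2 (25%) were higher at an unadjusted p below 0.05, beside 3.92% of all genes. These were RNPC3 (1.04, SE 0.45) and ZCRB1 (0.28, SE 0.13), both with an adjusted p of 0.681.

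Among 27 further speckle proteins and kinases, PNN, which encodes pinin, a speckle protein, was at 8.53 to 13.5 FPKM against 6.75 to 9.62 FPKM (log2 fold change 0.42, SE 0.13, adjusted p = 0.579) with an r of 0.89 with the intron share, and SAP18 had a log2 fold change of -1.06 (SE 0.38, adjusted p = 0.619). Of the 28 further SR and hnRNP genes, 1 (3.57%) was lower in the H group at an unadjusted p below 0.05 and 0 were higher. Of all genes 3.36% were lower. The 1 gene was HNRNPA0 (-0.40, SE 0.17, adjusted p = 0.681), with HNRNPUL1 next (-0.18, SE 0.09, adjusted p = 0.712). Among 14 regulators of muscle exons, CELF1, which opposes MBNL1, was at 15 to 21 FPKM against 18.3 to 43.6 FPKM (-0.48, SE 0.18, adjusted p = 0.651), and MBNL3 had a log2 fold change of 0.67 (SE 0.26, adjusted p = 0.651). Among the genes of the exon junction complex and of nonsense-mediated decay, which degrades transcripts with early stop codons, UPF3A had the smallest p, with a log2 fold change of -0.55 (SE 0.21, adjusted p = 0.641). Its level was low, at 0 to 0.372 FPKM in H pigs and 0.353 to 0.792 FPKM in L pigs. It passed the filter of 0.5 FPKM through the L group alone, where it is higher, so its difference is a description.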

How the data were processed

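RNA was sequenced from 1 LD sample of each of 12 pigs. Per the labels, the authors trimmed reads with Trim Galore, checked them with FastQC, aligned them with TopHat2 (2.1.0) and assembled transcripts in each library separately with Cufflinks (2.2.1), and the deposited files list each transcript with its exons, coverage and FPKM. These FPKM values are not counts, and no read totals were used. Depth was therefore read from the coverage per FPKM (7.51 to 11.6), and an absent transcript was set to 0.

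Each transcript was assigned to the gene of the Sscrofa11.1 RefSeq annotation with which it shared most exonic bases on its strand. Of the introns in the files 98.3% began and ended with standard splice-site bases in that genome. FPKM was summed per gene and scaled between libraries by median ratios. The H and L groups follow the labels. Genes whose mean reached 0.5 FPKM in the H or the L group entered the test with limma (3.58.1, R 4.3.3) on log2(FPKM + 0.5), with a variance trend and Benjamini-Hochberg adjustment over all genes, at a threshold of 0.1. Fold changes are on this scale, which understates those of low genes. Intron chains found in at least 6 libraries were tested likewise, and shares of FPKM in transcripts with a kept intron were tested on the arcsine square root scale. Single values per library were compared with exact permutation tests over all 924 arrangements. The tests were also run on data simulated with a normal spread. Shares and chains, which are often absent or at a limit, differ from such data, so this run lends no support to their tests.

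The members and gene lists were chosen with earlier results of these data known. Members are described in full if they have one of the 3 smallest p of their class, an unadjusted p below 0.05, groups without overlap, or the highest or lowest r with the intron share in their class. Of other lists the 2 genes with the smallest p are named, except where a gene is not reported here. The introns, the extra exons and the levels of CLK1 and the other genes shown outside this rule were chosen after their values were seen, as were 3 alternatives: transcripts of at least 200 bases, coverage over annotated exons, and testing intron by intron. Introns and exons were followed where measured in at least 9 libraries and above 0 in at least 6. Other alternatives changed the pseudocount, filter, scaling, transcripts used, variance trend, block, depth covariate and pigs included. Sequences are from the RefSeq genome Sscrofa11.1. The replicate numbers did not pair the pigs, since the correlation of same-numbered deviations ran from -0.075 to 0.059.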

Additional observations from a re-analysis of the deposited data

Results flagged for a closer look

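A library far from the other 5 of its group (Dixon's criterion for 6 samples) was found in 20 of the 92 groups of member levels and shares examined. The rate of about 1 in 20 for this criterion holds for independent normal values. These groups share pigs, and some shares are tied at their lowest or highest possible value, so the count is a description and shows no excess. L3 stood apart in 6 of the 20 groups. Its levels were 17.1 FPKM for CLK3, 10.6 FPKM for SRPK2, 23.3 FPKM for SRSF7, 27.1 FPKM for TRA2B and 114 FPKM for HNRNPK, each the highest of the L group, and its intron share was the lowest at 11.3%.

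L4 stood apart in 5. It had the highest level of the L group for SRPK3 (57 FPKM), SRSF11 (80.9 FPKM) and LUC7L3 (41 FPKM), and the highest share of FPKM in transcripts with a kept intron for SRSF5 (100%) and CLK1 (38.5%). Among the H pigs, H5 was high for SRPK2 (8.1 FPKM) and low for SRPK3 (24.5 FPKM), and H1 was high for SRSF11 (46.9 FPKM) and low for the retained share of SRSF5 (73.5%, the others at 100%). H6 was high for RBM3 (21.7 FPKM), and H3 was at 0% for the retained share of CLK1, with 48.5% the next lowest. In the L group, L5 was high for TRA2A (26.1 FPKM), L6 was low for HNRNPD (10.6 FPKM), and L2 alone was above 0 for the retained share of RBM3 (13.2%).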

How the results depend on the processing

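No member passed the adjusted threshold for levels or chains under any alternative run, and for kept introns only SRSF5 did, without L4 (adjusted p = 0.0267). Over all alternatives the log2 fold change of CCNL2 stayed between 0.27 and 0.53, with adjusted p from 0.223 to 0.852. Where a value moved, the cause was not tested. Of the member levels with an unadjusted p below 0.05, 3 were higher and 0 lower in H. The higher count was 7 with coverage over annotated exons and 5 with depth as a covariate, without a filter or with quantile normalization. The lower count was 2 with annotated intron chains alone. Over all genes, where 1 was called, 0 were with a filter of 1 FPKM and 2 without the variance trend. With annotated chains alone the sign turned for CLK2 (-0.59), SRPK1 (1.92), SRPK2 (0.027), PNISR (-1.32) and SON (-0.075), and without H4 and L3 for SRPK2 (0.41) and HNRNPK (0.034).

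For chains (7 called over all genes, members 2 higher and 3 lower at the unadjusted level), at least 4 libraries gave 4, 5 and 10, and at least 9 libraries 0, 1 and 1. For kept introns (2 called over all genes, 6 members higher), testing intron by intron gave 12 and 11. The intron share difference was -2.49 points by coverage. With that share 0 members had an r of at least 0.5 and 2 of -0.5 or lower, and r was -0.27 for CCNL2 and -0.38 for LUC7L2. The members at -0.5 or lower numbered 3 by Spearman's rho, 12 within L, and 2 without the 2 farthest pigs, which are H4 and L3. Those at 0.5 or higher numbered 3 within L and 11 with coverage over annotated exons, and LUC7L2 was at -0.013 within H.

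With the replicate number as a block, 0 genes, 0 chains and 0 retained shares were called and 2 member levels were lower in H at the unadjusted level. The same numbers do not mark shared pigs, and the block changed no other count by over 1.5 times.

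Leaving out each pig in turn gave 1 to 4 called genes, 2 to 5 members higher and 0 to 2 lower, and a log2 fold change of SRPK2 from -0.31 to 0.29 (0.03 without H1, 0.01 without H2, 0.08 without H4). It gave an intron share difference of 3.12 to 4.54 points, 6 to 11 called chains with 1 to 3 member chains higher and 2 to 5 lower, and 3 to 7 members with an r of -0.5 or lower and 4 to 7 of at least 0.5. For kept introns it gave 1 to 9 called genes, 3 to 6 members higher and 0 to 1 lower, with 0 to 1 called. The files used here hold no counts, and the read totals given with the study were not used, so no counting interval is printed.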

Other observations

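The stress and cell type genes measured beside the splicing regulators gave the following values. FOS, an immediate early transcription factor, was at 2.85 to 29 FPKM in H pigs and 28.7 to 103 FPKM in L pigs (log2 fold change -2.30, SE 0.59, limma, adjusted p = 0.563), and DUSP1, a phosphatase induced with it, at 10.2 to 58.1 FPKM against 49.7 to 172 FPKM (-1.80, SE 0.47, adjusted p = 0.563). NR4A1 of the same list is listed at 0 in all libraries. DNAJB1 had the smallest p of the heat shock genes (adjusted p = 0.563), followed by HSP90AB1 (-0.36, SE 0.27, adjusted p = 0.786).

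Of the adipocyte genes, CIDEC, a lipid droplet protein, was at 1.19 to 5.39 FPKM against 0 to 1.52 FPKM (log2 fold change 1.23, SE 0.37, adjusted p = 0.573) and PPARG, the regulator of adipogenesis, at medians of 1.27 and 0.757 FPKM (0.45, SE 0.18, adjusted p = 0.653), with RETN listed at 0. All 7 endothelial genes tested had a log2 fold change above 0, beside 50.6% of all genes. Their sums were 58.3 to 129 FPKM against 39.6 to 102 FPKM, with CLDN5 listed at 0. TEK (0.31, SE 0.11, adjusted p = 0.619) and KDR (0.38, SE 0.17, adjusted p = 0.681), both receptors of vessel growth, had the smallest p of these. The macrophage sums were 13.8 to 21.8 FPKM against 8.9 to 26.3 FPKM, with CD68 listed at 0 and MRC1 (adjusted p = 0.687) and CD163 (adjusted p = 0.752) first by p. The fibroblast sums were 161 to 612 FPKM against 190 to 740.0 FPKM, with PDGFRA (adjusted p = 0.8) and LUM (adjusted p = 0.836) first by p. The erythroid sums were 85.4 to 299 FPKM against 73.1 to 161 FPKM, with SLC4A1 listed at 0 and an adjusted p of 0.59 for AHSP and 0.593 for HBB. Of the muscle genes DES, which encodes desmin, had medians of 1809 and 2227 FPKM (-0.46, SE 0.21, adjusted p = 0.682), and TTN, which encodes titin, is listed at 0 in every L pig and has a median of 0 in H pigs. MEG3, the only RNA of the nuclear list with a gene in the annotation, was at 0.779 to 3.07 FPKM against 0.681 to 2.22 FPKM.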
